A study of Mus musculus with 6 samples.

Results

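Antrum and forestomach cultures stand at opposite ends of the mouse stomach: the antrum, next to the intestine, is lined by a single layer of columnar cells that forms mucus-secreting glands, and the forestomach by a stratified squamous epithelium that resembles the oesophagus and the skin. RNA was sequenced from epithelial cells of both regions, grown as flat (2D) cultures. The comparison takes the 2 antrum libraries and the 2 forestomach libraries, 4 of the 6 libraries in the series, over all 15431 genes of the deposited table whose symbols had not turned into dates. The antrum group is labelled as antrum and pylorus together, and its columns are named for the pylorus. The remaining 2 libraries are corpus cultures, the gland-bearing middle region, and serve below to show where antrum differs from its closest neighbour. Cells of all 3 regions were wild type ("WT" in the labels), with no agent or allele given. A separate published protocol served for the forestomach cells, so region and culture conditions cannot be told apart in any value below that sets antrum against forestomach.

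The labels give each region the same pair of IDs, which the columns of the table do not carry, and nothing says that the 2 libraries of a region came from separate animals or cultures. The p-values thus cover the spread between the sequenced libraries alone, and that spread may be technical. RNA of whole cultures was measured, so fewer cells of a type and less RNA per cell cannot be told apart.

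As background, the columnar gastric epithelium is specified by endodermal transcription factors of the Gata, Hnf and Foxa families, it seals itself with tight junctions, and it secretes mucins, gastrokines and digestive enzymes. Squamous epithelia are built on p63, the product of Trp63, which maintains basal cells. Those cells carry keratins 5 and 14, hold together by desmosomes, and anchor to the basement membrane through hemidesmosomes. Nkx6-3 and Pdx1 are homeobox genes of the distal stomach, Cybrd1 encodes a ferric reductase that takes part in iron uptake, Krt8 a keratin of single-layered epithelia, and Krt5 a keratin of basal squamous cells.

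Values are CPM, read counts scaled by the size of the library and uncorrected for gene length. The step of 1 read in the low values put the libraries at 38.7 and 46.9 M (mega) reads for antrum, 36.9 and 47.7 for corpus and 37.7 and 40.4 for forestomach, of which 14 to 18.2 M reads fell on listed genes. A count of 3 reads was worth 0.063 to 0.0814 CPM, which covers counting error only. Fold changes are log2 differences of CPM + 1 with the standard error of the fit (2 libraries per group), a scale that understates the change of low genes. That error pooled the spread of all 6 libraries, corpus included, so it is not the spread of the compared libraries alone. A gene was called higher or lower at an adjusted p under 0.05 (limma, moderated test, Benjamini-Hochberg over the 11891 genes that reached 1 CPM in at least 2 of the 6 libraries). A gene at 0 in both libraries of a group is given as listed at 0, without a fold, since Hmgcs1, which cells need to make cholesterol, is listed at 0 in all 6 libraries.

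The 5 markers of the regions followed the labels. They were chosen with earlier results of these data known, so their values are no independent check of the regions. Nkx6-3 had 42.0 and 28.7 CPM in the antrum libraries, 1.84 and 0.06 CPM in the corpus libraries, and was listed at 0 in both forestomach libraries. Pdx1 had 18.0 and 17.2 CPM in antrum, 3.50 and 2.43 CPM in corpus, and was likewise listed at 0 in forestomach. Both thus lay higher in antrum than in corpus as well as in forestomach, and their tests against corpus are given below. Cybrd1 had 780.4 and 763 CPM in antrum, against 0.11 and 0.05 CPM in forestomach, and its corpus level lay between at 369 and 389.7 CPM. Its log2 difference between antrum and corpus, 1.02 ± 0.25, was not called (adjusted p = 0.164, limma). Krt8 had 1769.9 and 1135 CPM in antrum, against 0.50 and 0.59 CPM in forestomach. The keratin of basal squamous cells went the other way: Krt5 had 0.93 and 0.28 CPM in antrum and 3715 and 2613 CPM in forestomach, a log2 difference of -10.95 ± 0.32 (adjusted p = 8.6e-08, limma). For Krt8 and Cybrd1 the log2 differences were 9.84 ± 0.33 and 9.48 ± 0.25, with adjusted p of 1.12e-07 and 7.56e-08 (limma). Corpus cultures had 0.19 and 0.65 CPM of Krt5, on the antrum side of the gap.

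**Figure D1:**
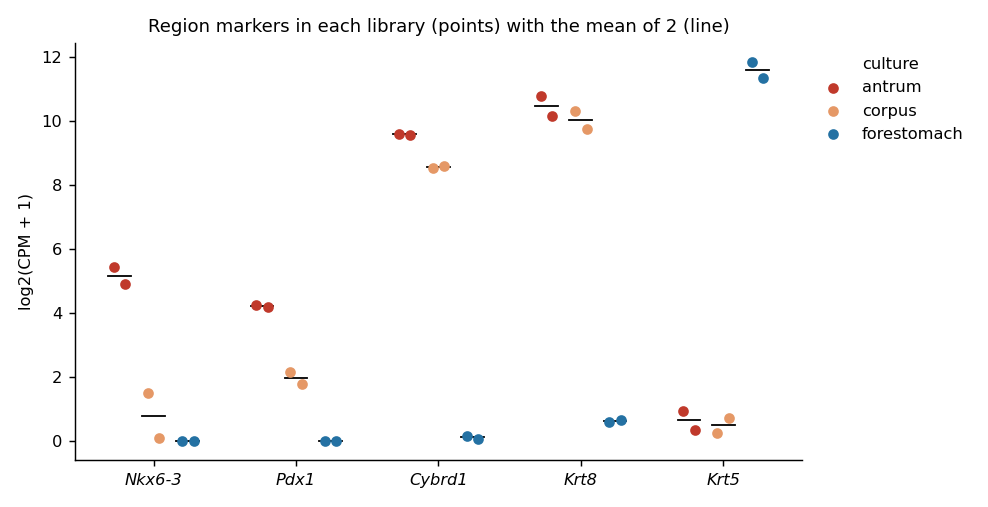
Levels of the 5 region markers as log2(CPM + 1), with 1 point per library and a line at the mean of the 2 libraries of a culture. Antrum points lie above both other cultures for Nkx6-3, Pdx1 and Cybrd1, antrum and corpus points lie together and far above forestomach for Krt8, and for Krt5 the forestomach points lie at 3715 and 2613 CPM while both other cultures stay under 1 CPM. Cybrd1 was not called between antrum and corpus.

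Of the 11891 genes tested, 38.9% were called between antrum and forestomach: 2407 (20.2%) were higher in antrum than in forestomach and 2223 (18.7%) were lower. More than 2-fold differences made up 1993 of the higher genes (16.8% of those tested) and 1626 of the lower ones (13.7%), and 235 and 119 genes passed 16-fold. The median log2 difference over all tested genes was -0.03. Rescaling the listed genes to the same sum moved that median to 0.08, so differences of that order rest on the scaling. The balance of the calls moved too, to 3117 higher and 2279 lower genes with that rescaling. With median ratio scaling it was 2944 higher and 2534 lower. Among the 9748 genes at 1 CPM or more in all 4 libraries, which no filter could have forced into 1 direction, 1306 (13.4%) were higher and 1634 (16.8%) were lower. A further 368 genes reached 1 CPM in both antrum libraries and stayed under 0.1 CPM in both forestomach libraries, and 158 did the reverse. The 2 antrum libraries lay more than 2-fold apart on the log2(CPM + 1) scale in 1.35% of tested genes, against 12.5% for the 2 forestomach libraries. The number of lower genes depended on both antrum libraries: it was 1458 without antrum 1 and 1220 without antrum 2.

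**Figure D2:**
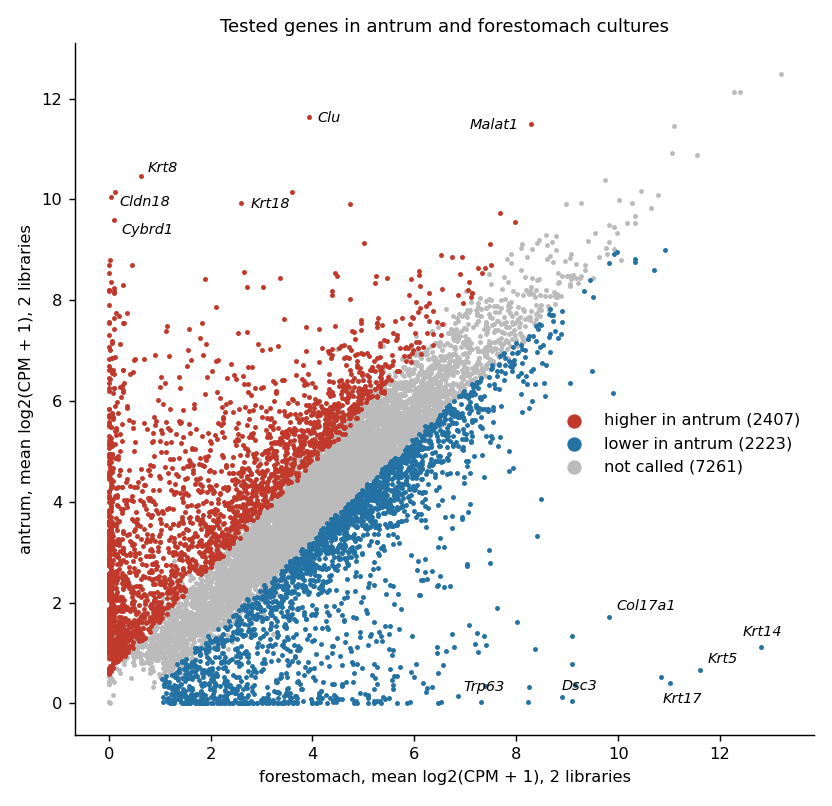
Mean log2(CPM + 1) of the 2 antrum libraries against that of the 2 forestomach libraries, 1 point per tested gene. Red points are the 2407 genes called higher in antrum and blue points the 2223 called lower. Krt8, Cldn18, Cybrd1 and Clu stand at the antrum edge and Krt14, Krt5, Krt17, Col17a1, Dsc3 and Trp63 at the forestomach edge.

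The largest positive differences belonged to Apob and Cldn18. Apob had 1655 and 775 CPM in antrum, against 0.05 and 0.12 CPM in forestomach; the gene encodes the main protein of lipoprotein particles. Cldn18 had 1148 and 979.9 CPM in antrum, against 0.03 and 0.02 CPM in forestomach; it codes for the claudin typical of gastric tight junctions. Their log2 differences were 10.03 ± 0.38 and 10.02 ± 0.26. Beside Krt8, Cybrd1 and the secretory and transport genes treated below, that edge held the membrane-binding Anxa10, Lgals4 (galectin 4), the tetraspanin gene Tspan8, the secreted phosphoprotein gene Spp1 and the apical membrane protein gene Prom1, at 265 to 461 CPM in the antrum libraries and at most 0.40 CPM in any forestomach library. The largest negative difference belonged to Krt14, the partner of keratin 5, with 1.34 and 1.02 CPM in antrum and 7227 and 7056 CPM in forestomach (-11.68 ± 0.26, adjusted p = 5.47e-08, limma). Beside the keratins and desmosomal genes treated below, that edge held the small heat shock protein gene Hspb1 (0.34 and 0.23 CPM in antrum, 616 and 526 CPM in forestomach), the secreted protease gene Htra1 (1.03 and 0.45 CPM in antrum and 689 and 435 CPM in forestomach) and the growth factor binding protein gene Igfbp2 (0.90 and 1.32 CPM in antrum and 462 and 235 CPM in forestomach). Lack of overlap was part of the rule that chose these genes; over all tested genes the libraries did not overlap in 31.9% with antrum above and in 35.5% with antrum below.

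The ranking by CPM, which favours long transcripts, left out the same classes of genes. Eef1a1, Eef2, Actb and Ahnak were among its 10 highest in both cultures, and none of the 4 was called. Among the 10 highest in antrum were Clu, which encodes the secreted chaperone clusterin, with 3901 and 2611 CPM in antrum and 18.2 and 10.9 CPM in forestomach (7.72 ± 0.37, adjusted p = 5.6e-07, limma), the nuclear noncoding RNA Malat1 (2778 and 3024 CPM in antrum and 386 and 254 CPM in forestomach) and the cell surface gene Msln, for mesothelin (1555 and 828 CPM in antrum and 16.5 and 7.46 CPM in forestomach). The 10 highest in forestomach included 4 keratins and Pkm2, the pyruvate kinase gene under its older symbol, with 615 and 425 CPM in antrum and 2236 and 1692 CPM in forestomach.

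Transcription factors of the columnar and the squamous lineage split in opposite directions. Of 27 tested columnar and endodermal factors, 24 were higher in antrum and 0 lower, with a median log2 difference of 3.13. Hnf4a had 99.98 and 65.8 CPM in antrum and was listed at 0 in forestomach, as were Gata5 (46.7 and 41.5 CPM in antrum) and Foxa3 (35.9 and 22.8 CPM). Gata4 had 73.1 and 51.9 CPM in antrum, against 0.08 and 0.17 CPM in forestomach (5.80 ± 0.28, adjusted p = 5.33e-07, limma). Foxa2 (31.3 and 18.0 CPM in antrum) and Gata6 (35.3 and 31.7 CPM in antrum) did not exceed 0.1 CPM in forestomach. Several members were only graded: Sox9 had 32.2 and 35.8 CPM in antrum and 4.03 and 5.35 CPM in forestomach, Sox21 42.6 and 29.98 CPM in antrum and 11.1 and 8.30 CPM in forestomach, and Klf4, which was not called, 84.0 and 45.0 CPM in antrum and 49.7 and 42.4 CPM in forestomach. Only 8 members reached 1 CPM in all 4 libraries, 6 of them higher. The other tested members reached it in both antrum libraries but not in both forestomach libraries, so the filter largely set their direction. With the 8 members listed at 0 in 1 group set to a bound of 3 reads per library, the median was 3.96.

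Of 29 tested squamous factors, 20 were lower in antrum, 3 higher and 6 not called (median -1.86). Of the 14 at 1 CPM or more in all 4 libraries, 3 were higher and 5 lower; the other tested members passed the filter only through forestomach. Trp63 had 0.03 and 0.02 CPM in antrum, against 180.3 and 138 CPM in forestomach (-7.28 ± 0.25, adjusted p = 1.12e-07, limma). The Iroquois genes Irx1 and Irx2 had at most 0.02 CPM in antrum, against 49.8 and 21.7 CPM of Irx1 and 56.1 and 23.0 CPM of Irx2 in forestomach, and Bnc1, which encodes the zinc finger protein basonuclin of basal squamous cells, had 0.03 and 0.02 CPM in antrum and 24.2 and 18.2 CPM in forestomach. Tfap2c and Trp73 were listed at 0 in antrum, with 18.5 and 11.8 CPM of Tfap2c and 2.36 and 2.13 CPM of Trp73 in forestomach. Sox2, known for its role in foregut epithelia, was present in both: Sox2 had 6.92 and 5.99 CPM in antrum, against 39.3 and 17.0 CPM in forestomach, a log2 difference of -1.86 ± 0.39. Factors that pattern barriers in many epithelia were not called or went the other way. Grhl2, Grhl1 and Klf5 were not called, whereas Grhl3 was higher in antrum (17.4 and 12.6 CPM in antrum and 3.21 and 2.85 CPM in forestomach), as was the homeobox gene Meis2 (39.2 and 41.0 CPM in antrum and 7.67 and 4.88 CPM in forestomach).

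Keratins, the intermediate filament proteins of epithelia, separated the cultures in both directions. All 6 tested keratins of simple epithelia were higher in antrum: beside Krt8, its partner Krt18 had 1242 and 768 CPM in antrum and 3.08 and 8.08 CPM in forestomach, Krt19 1209 and 761 CPM in antrum and 26.3 and 25.1 CPM in forestomach, and Krt7 778 and 402 CPM in antrum and 33.9 and 29.1 CPM in forestomach. Forestomach cultures thus held Krt19 and Krt7 at a low level but hardly any Krt8. Of 10 tested keratins of stratified epithelia, 8 were lower in antrum, but only 2 reached 1 CPM in all 4 libraries, 1 higher and 1 lower, so the filter largely set that direction. Krt17 had 0.49 and 0.17 CPM in antrum and 1930.0 and 2197 CPM in forestomach, and Krt6a 0.52 and 0.36 CPM in antrum and 1604 and 2111 CPM in forestomach. Krt6a and Krt6b are close copies, so reads may be shared between them. The keratins of the suprabasal layers of the skin were hardly measured in either culture: Krt10 had 0.36 and 0.58 CPM in antrum and 1.01 and 0.89 CPM in forestomach, and Krt1 stayed at or under 0.05 CPM in the 4 libraries. Krt13, a suprabasal keratin of internal squamous epithelia, had 0.34 and 0.13 CPM in antrum and 62.2 and 91.1 CPM in forestomach. Krt80 went against the list, with 33.4 and 17.8 CPM in antrum and 0.90 and 2.92 CPM in forestomach (3.22 ± 0.41), as did Krt4, at 6.38 and 4.67 CPM in antrum and 1.80 and 2.38 CPM in forestomach. The call of Krt4 (adjusted p = 0.0215, limma) did not hold without antrum 1 or without either forestomach library.

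Krt8 and Krt5 lie on the same chromosome and strand and changed in opposite directions, so the sequences before their starts are shown for comparison (RefSeq, build GRCm38.p6, 250 bases before to 25 after the annotated start, 5′ to 3′; capitals mark the motif matches named here, searched on both strands). Krt8 lies at chr15:102004318-102004592 and Krt5 at chr15:101712881-101713155, both on the minus strand.
Krt8: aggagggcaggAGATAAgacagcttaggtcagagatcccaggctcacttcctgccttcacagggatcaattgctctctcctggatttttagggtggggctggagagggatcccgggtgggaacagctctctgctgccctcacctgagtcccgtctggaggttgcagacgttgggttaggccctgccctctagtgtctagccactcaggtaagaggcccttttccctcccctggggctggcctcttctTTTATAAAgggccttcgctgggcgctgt
Krt5: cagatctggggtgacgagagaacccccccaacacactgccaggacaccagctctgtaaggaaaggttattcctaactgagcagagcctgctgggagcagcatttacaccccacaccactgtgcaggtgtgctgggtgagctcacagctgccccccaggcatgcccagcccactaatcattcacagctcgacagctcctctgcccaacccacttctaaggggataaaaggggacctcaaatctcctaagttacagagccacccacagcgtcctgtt
In the Krt8 window the letters AGATAA, a core read by Gata factors, began 239 bases before the start, and TATAAA matched at the start itself, on both strands in overlapping positions. The Krt5 window held neither. Among all 32851 such windows, TATAAA occurred in 13.0% and AGATAA in 10.7%. Windows were found for 14 of the 15 named genes furthest above forestomach and for 8 of the 15 furthest below it. TATAAA occurred in 6 of the 14 and in 1 of the 8, AGATAA in 4 and 1. The AP-1 letters TGANTCA occurred in 3 and 2, against 7.35% of all windows, and the GC box GGGCGG in 6 and 4, against 34.4%. A gene was counted if any of its windows matched, whereas the percentages are shares of single windows. The counts and the percentages are thus not on the same footing. These are matches of letters only.

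Cell junctions differed by type. Of 18 tested claudins and tight junction genes, 17 were higher in antrum and 1, Cldn1, was lower; all 10 members at 1 CPM or more in the 4 libraries were higher. Cldn2, whose protein forms cation pores, had 93.3 and 103 CPM in antrum and 0.03 and 0 CPM in forestomach. Ocln, for occludin, had 129 and 127 CPM in antrum and 1.38 and 2.68 CPM in forestomach (5.45 ± 0.29). Cldn1, the claudin of the epidermis, had 0.44 and 0.90 CPM in antrum and 28.9 and 48.9 CPM in forestomach (-4.55 ± 0.30, adjusted p = 3.57e-06, limma).

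Desmosomes showed a change of members. The desmosome and hemidesmosome list had 23 tested genes, 13 lower in antrum and 4 higher (median -1.14); the higher count was 2 without antrum 2. Of the 20 at 1 CPM or more in all 4 libraries, 4 were higher and 10 lower. The cadherins of basal squamous cells were nearly absent in antrum: Dsc3 had 0.03 and 0.04 CPM in antrum and 723 and 411 CPM in forestomach, and Dsg3 0.13 and 0.04 CPM in antrum and 581 and 385 CPM in forestomach. Their relatives of simple epithelia went the other way, with 119.7 and 133 CPM in antrum and 24.8 and 14.1 CPM in forestomach for Dsg2 (2.69 ± 0.31) and 107 and 128 CPM in antrum and 57.2 and 52.1 CPM in forestomach for Dsc2 (1.08 ± 0.26, a call lost without antrum 2). The plaque genes split likewise: Pkp1 had 2.09 and 1.07 CPM in antrum and 885 and 336 CPM in forestomach, whereas Pkp2 had 26.9 and 21.9 CPM in antrum and 5.68 and 4.63 CPM in forestomach. Dsp, which encodes desmoplakin, the linker common to all desmosomes, was not called (435 and 449 CPM in antrum, 1886 and 591 CPM in forestomach, the forestomach libraries lying far apart), and was called lower without forestomach 2.

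On the side of the basement membrane, Col17a1, the hemidesmosomal collagen, had 2.27 and 2.26 CPM in antrum and 1012 and 802 CPM in forestomach (-8.11 ± 0.26, adjusted p = 9.75e-08, limma). Subunits of the laminin of hemidesmosomes differed unequally: Lama3 had 9.29 and 8.57 CPM in antrum, against 409.9 and 281 CPM in forestomach, a difference of -5.10 ± 0.27, whereas Lamb3 (-1.14 ± 0.31) kept 90.7 to 138 CPM in the antrum libraries. Collagen IV went the other way. Col4a1 had 206 and 167 CPM in antrum, against 0.34 and 0.10 CPM in forestomach (7.27 ± 0.27), and Col4a2 had 129 and 98.6 CPM in antrum and 0.69 and 0.22 CPM in forestomach. Itga6 and Itgb4, the hemidesmosomal integrin pair, were both lower in antrum but well measured. Itga6 had 212 and 207 CPM in antrum and 406 and 390.1 CPM in forestomach, and Itgb4 229 and 129.6 CPM in antrum and 331 and 356 CPM in forestomach. The call of Itga6 was lost when either antrum library was left out, that of Itgb4 when antrum 2 or either forestomach library was, and that of Lamb3 when antrum 2 was. Itgb1, common to many integrins, was not called (245 and 248 CPM in antrum and 235 and 230.0 CPM in forestomach). Gap junctions also changed member: Gja1, for connexin 43, had 1.08 and 2.07 CPM in antrum and 169.8 and 159 CPM in forestomach, and Gjb1, for connexin 32, 8.54 and 7.14 CPM in antrum and 0.13 and 0 CPM in forestomach.

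Genes of stromal cells moved with collagen IV. Of 25 fibroblast and feeder cell markers, 18 were tested and 17 of these were higher in antrum, at low levels. Only 1 member reached 1 CPM in all 4 libraries, so the filter left nearly all of them no other direction. The list summed to 165 and 154 CPM in antrum, 199.99 and 106 CPM in corpus and 22.1 and 5.11 CPM in forestomach. Col1a1 had 15.4 and 12.9 CPM in antrum and 0.05 and 0 CPM in forestomach, Vim 8.62 and 7.80 CPM in antrum and 0.13 and 0 CPM in forestomach, and the surface marker gene Pdgfra 0.75 and 0.66 CPM in antrum and 0.08 and 0.12 CPM in forestomach. Pdgfrb and Thy1 were listed at 0 in both forestomach libraries and stayed under 1 CPM in antrum. Their part in the collagen IV values was not tested.

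Secreted products of the gastric surface and glands gave the same picture. All 16 tested genes of gastric mucus and surface secretion, of 26 on the list, were higher in antrum, 8 of them listed at 0 in forestomach. Only 1, Psca, reached 1 CPM in all 4 libraries, so the filter leaves the others no other direction. The surface mucin gene Muc5ac had 277 and 105 CPM in antrum and 0.03 and 0.12 CPM in forestomach, and the gland mucin gene Muc6 52.4 and 52.1 CPM in antrum and 0.03 and 0.07 CPM in forestomach. Gkn3, a gastrokine gene, had 391 and 442 CPM in antrum and 0 and 0.02 CPM in forestomach, and Tff2, a trefoil factor gene of gland mucous cells, 18.0 and 14.9 CPM in antrum and 0 in both forestomach libraries. Psca, for a surface antigen of gastric epithelium, had 423 and 222 CPM in antrum and 5.97 and 8.60 CPM in forestomach (5.23 ± 0.38).

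Pgc, which encodes pepsinogen C, had 307 and 346 CPM in antrum and 0.03 and 0.02 CPM in forestomach (8.32 ± 0.26), and the aspartic protease gene Ctse 338 and 256 CPM in antrum and 0 in both forestomach libraries. Enzymes that build mucin sugar chains were measured in both cultures. Of 29 tested, 20 were higher in antrum and 2 lower (1 without antrum 2 or forestomach 1), and of the 20 at 1 CPM or more in all 4 libraries 12 were higher. The core enzyme gene Gcnt3 had 427 and 329 CPM in antrum and 3.26 and 8.2 CPM in forestomach (5.91 ± 0.38), and the fucosyltransferase gene Fut2 30.3 and 29.7 CPM in antrum and 0.05 and 0.05 CPM in forestomach. Galnt1 and Galnt3, which start O-linked chains, were not called (77.5 and 74.6 CPM in antrum and 54.3 and 49.5 CPM in forestomach for Galnt3, which was called higher without forestomach 1).

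Ion and water transport genes followed the same line: 22 of 30 tested were higher in antrum and 2 lower (median 2.32). Of the 17 at 1 CPM or more in all 4 libraries, 12 were higher and 1 lower. Slc4a4 had 297 and 304 CPM in antrum, against 0.13 and 0.02 CPM in forestomach; the gene encodes a sodium bicarbonate cotransporter. Atp1b1 had 294 and 339.5 CPM in antrum, against 0.32 and 0.12 CPM in forestomach; it encodes a beta subunit of the sodium pump. The chloride channel gene Cftr had 20.5 and 23.1 CPM in antrum and 1.72 and 0.45 CPM in forestomach (3.52 ± 0.33). Aquaporins changed member: Aqp5 had 161 and 80.3 CPM in antrum and 0 in both forestomach libraries, whereas Aqp3, of stratified epithelia, had 0.46 and 0.23 CPM in antrum and 27.4 and 21.7 CPM in forestomach (-4.24 ± 0.24, adjusted p = 1.45e-06, limma).

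**Figure D3:**
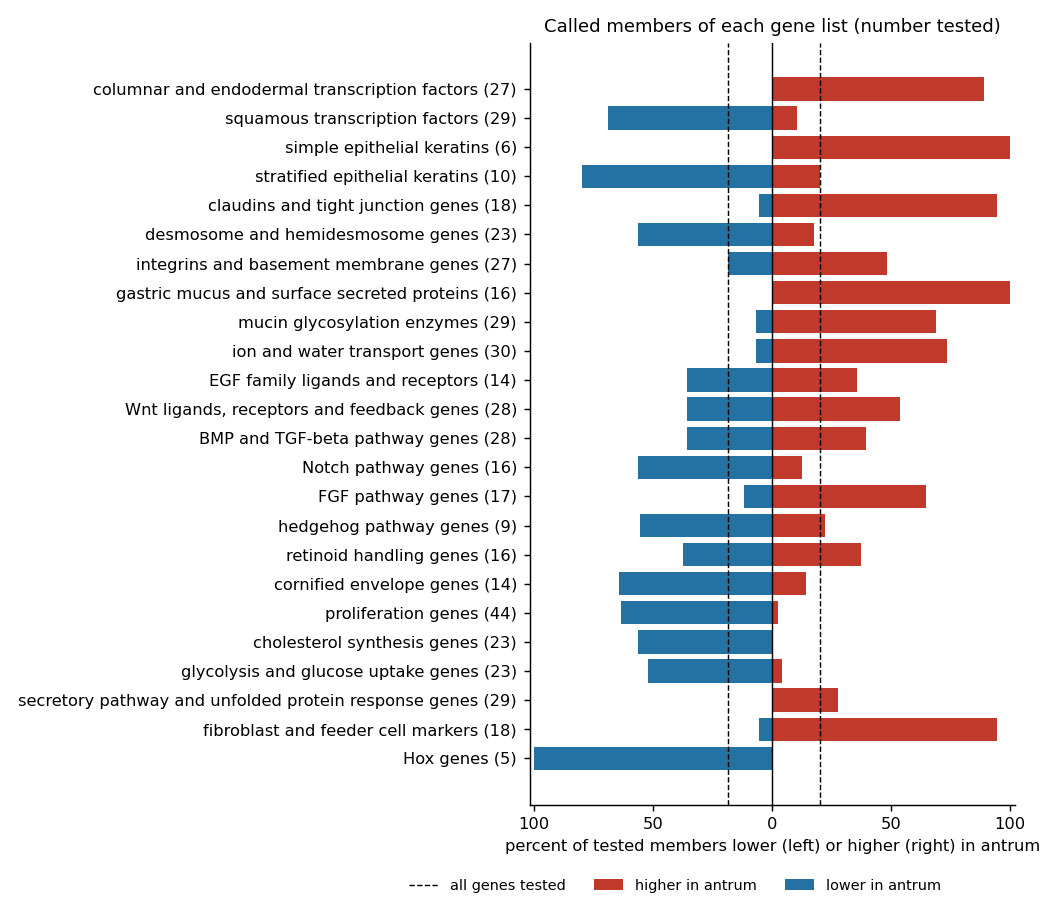
Percent of the tested members of selected gene lists called higher in antrum (red, to the right) or lower in antrum (blue, to the left), with the number tested in brackets. The lists shown are a selection from the 53. Dashed lines stand at the share over all tested genes, 20.2% higher and 18.7% lower. Lists of columnar factors, simple keratins, tight junctions, mucus and fibroblast markers extend to the right, and those of squamous factors, stratified keratins, proliferation, cholesterol synthesis, glycolysis and Hox genes to the left.

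Each signalling list held genes called in both directions, often in unequal numbers. For the Wnt pathway, which sustains gastric stem cells, 15 of 28 tested genes were higher in antrum and 10 lower. Of the 16 at 1 CPM or more in all 4 libraries, 10 were higher and 3 lower. All 6 tested Wnt ligand genes were lower in antrum, though Wnt7b alone reached 1 CPM in all 4 libraries (3.43 and 1.92 CPM in antrum and 26.5 and 17.5 CPM in forestomach). Wnt4 had 0.28 and 0.23 CPM in antrum and 359 and 258 CPM in forestomach (-7.93 ± 0.27, adjusted p = 1.12e-07, limma), and Wnt10a 0.62 and 0.43 CPM in antrum and 82.5 and 91.9 CPM in forestomach. Wls, whose product carries Wnt proteins to the cell surface, was also lower (67.1 and 69.9 CPM in antrum and 183 and 106 CPM in forestomach), a call lost when either antrum library was left out. Genes that respond to the pathway went the other way: Axin2 had 16.3 and 17.0 CPM in antrum and 3.34 and 1.02 CPM in forestomach (2.57 ± 0.35), and Lgr5, a receptor gene of gland stem cells, 9.55 and 11.9 CPM in antrum and 0 in both forestomach libraries. The Frizzled receptor genes divided, with 62.9 and 46.0 CPM in antrum and 16.1 and 11.5 CPM in forestomach for Fzd5 and 0.03 and 0.02 CPM in antrum and 16.4 and 16.8 CPM in forestomach for Fzd10.

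Notch genes were mostly lower in antrum, 9 of 16 tested against 2 higher (4 without forestomach 1, 1 without antrum 1 or forestomach 2), and of 13 members at 1 CPM or more in all 4 libraries 8 were lower and 0 higher. The receptor gene Notch1 had 25.4 and 21.5 CPM in antrum and 361 and 147 CPM in forestomach (-3.25 ± 0.41). The ligand genes Jag2 (6.56 and 5.25 CPM in antrum and 221 and 145 CPM in forestomach) and Dll1 (0.49 and 0.34 CPM in antrum and 39.8 and 33.3 CPM in forestomach) showed wider gaps, at -4.71 ± 0.35 and -4.73 ± 0.23. Notch2 was not called (85.5 and 63.9 CPM in antrum and 104 and 69.3 CPM in forestomach). The target gene Hes1 had 29.4 and 26.3 CPM in antrum and 118 and 53.2 CPM in forestomach (-1.48 ± 0.38, adjusted p = 0.0135, limma), a call lost when either antrum library was left out.

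Of 14 tested EGF family genes, 5 were higher in antrum and 5 lower (3 without antrum 2). Of the 9 at 1 CPM or more in all 4 libraries, 3 were higher and 2 lower. Among the ligands, Btc (15.9 and 14.4 CPM in antrum, 0.13 and 0.72 CPM in forestomach) and Areg (48.7 and 30.6 CPM in antrum and 0.82 and 6.04 CPM in forestomach) were higher and Nrg1 (0.49 and 0.72 CPM in antrum and 41.5 and 48.1 CPM in forestomach) lower. Among the receptors, Erbb3 was higher (136 and 126 CPM in antrum and 37.5 and 12.6 CPM in forestomach) and Egfr lower (56.5 and 44.4 CPM in antrum and 149 and 95.2 CPM in forestomach; -1.23 ± 0.30, adjusted p = 0.0105, limma, not called without antrum 2). In the FGF list, 11 of 17 were higher and 2 lower, but of the 9 at 1 CPM or more in all 4 libraries, 3 were higher and 2 lower; most of the other members passed the filter only through antrum. Among the higher genes were the feedback genes Dusp4 (46.4 and 26.6 CPM in antrum, 0.32 and 0.57 CPM in forestomach) and Spry1 (17.9 and 12.2 CPM in antrum and 3.47 and 3.34 CPM in forestomach). Fgfr2, for the receptor of most epithelial FGF signals, was lower (11.7 and 13.6 CPM in antrum and 85.8 and 55.3 CPM in forestomach).

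BMP and TGF-beta genes divided nearly evenly, with 11 higher and 10 lower of 28 tested (5 higher without antrum 1). Of the 15 at 1 CPM or more in all 4 libraries, 5 were higher and 4 lower. The target gene Id1 had 20.8 and 17.1 CPM in antrum and 0.05 and 0.72 CPM in forestomach (3.89 ± 0.32), and Bmp7 2.19 and 1.02 CPM in antrum and 35.5 and 32.5 CPM in forestomach (-3.78 ± 0.28). In the hedgehog list, the ligand gene Ihh had 8.03 and 7.48 CPM in antrum and 0 and 0.05 CPM in forestomach, while the signal transducer gene Smo (15 and 11.4 CPM in antrum and 58.2 and 67.9 CPM in forestomach) and the effector gene Gli3 (0.10 and 0.06 CPM in antrum and 15.7 and 9.14 CPM in forestomach) were lower. Retinoid genes, which control squamous and mucous differentiation, split 6 higher and 6 lower of 16, and 2 and 3 of the 7 at 1 CPM or more in all 4 libraries. The retinol dehydrogenase gene Rdh10 had 272 and 199.8 CPM in antrum and 3.42 and 3.15 CPM in forestomach (5.77 ± 0.29), and the receptor gene Rxra 21.8 and 16.1 CPM in antrum and 127 and 61.4 CPM in forestomach (-2.18 ± 0.38).

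**Figure D4:**
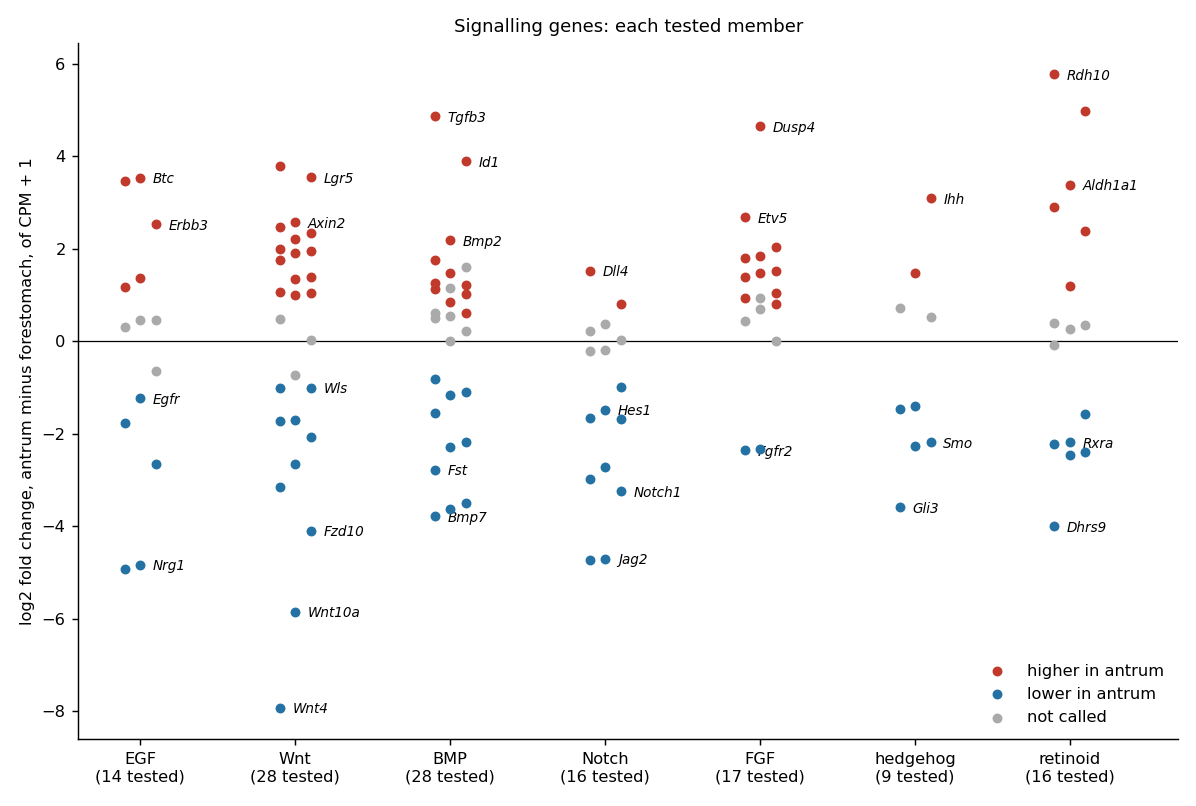
Log2 difference, antrum minus forestomach, of CPM + 1 for each tested member of 7 signalling lists, 1 point per gene. Red points were called higher in antrum, blue points lower and grey points neither. Wnt ligand genes and Fzd10 lie under the zero line with Lgr5 and Axin2 above it, and most Notch genes lie under it.

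Genes of cell division and of 2 metabolic routes were lower in antrum. Of 44 tested proliferation genes, 28 were lower and 1 higher (2 without forestomach 1; median -0.95). Rrm2, a ribonucleotide reductase subunit gene, had 30.7 and 40.5 CPM in antrum and 170.2 and 187 CPM in forestomach (-2.31 ± 0.27), and the cyclin gene Ccnb1 25.2 and 31.5 CPM in antrum and 110.2 and 89.3 CPM in forestomach (-1.78 ± 0.27). Mki67, the usual marker of cycling cells, was not called, and its libraries overlapped, with 165 and 286 CPM in antrum and 239 and 74.1 CPM in forestomach. Without forestomach 1 it was called higher in antrum, and without forestomach 2 the sign of its difference turned. The count of lower genes in this list was 9 without antrum 1 and 18 without antrum 2.

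Cholesterol synthesis genes were lower in 13 of 23 cases and higher in none, a count that was 6 without antrum 1 and 4 without antrum 2. Acat2, for a cytosolic thiolase, had 36.8 and 38.5 CPM in antrum and 164 and 206 CPM in forestomach (-2.25 ± 0.26). Of 23 tested glycolysis and glucose uptake genes, 12 were lower (6 without antrum 2) and 1 (4 without forestomach 1), the liver-type pyruvate kinase gene Pklr, was higher (10.9 and 8.81 CPM in antrum, 0 in both forestomach libraries). The glucose transporter gene Slc2a1 had 122 and 53.6 CPM in antrum and 618 and 458 CPM in forestomach (-2.70 ± 0.42), and Gapdh was not called (384 and 279 CPM in antrum and 468 and 447 CPM in forestomach). Secretory pathway and unfolded protein response genes lay near the 20.2% called higher over all tested genes. Of 29 tested, 0 were lower, 21 not called and 8 higher, the last a count that depended on forestomach 1. Among these, Ern2, for the stress sensor of mucous cells, had 53.7 and 49.1 CPM in antrum and 0 in both forestomach libraries, Xbp1 had 119.8 and 99.8 CPM in antrum and 37.5 and 34.7 CPM in forestomach (1.58 ± 0.26), and the chaperone gene Hspa5 was not called (616 and 641 CPM in antrum and 478 and 309.8 CPM in forestomach) except without forestomach 1.

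Defining markers of specialised and non-epithelial cells were sparse. Of 27 enteroendocrine markers 4 were tested, and Gast, Sst and Neurog3 were listed at 0 in all 4 libraries. That list summed to 13.7 and 11.4 CPM in antrum and 131 and 131 CPM in forestomach, nearly all of the forestomach sum being Cpe, a carboxypeptidase gene (6.51 and 5.12 CPM in antrum, 131 and 131 CPM in forestomach). The tuft cell list summed to 261 and 182 CPM in antrum and 5.48 and 6.29 CPM in forestomach. Avil, which encodes the actin-binding protein advillin, made up most of that (237 and 167 CPM in antrum and 0.11 and 0.05 CPM in forestomach), while the tuft cell factor Pou2f3 reached at most 0.02 CPM in the 4 libraries. The parietal cell list summed to 674 and 691 CPM in antrum and 4.30 and 5.99 CPM in forestomach, with 4 of 6 tested members higher. Most of that was the carbonic anhydrase gene Car2 (342 and 337 CPM in antrum, 1.86 and 3.86 CPM in forestomach) and the sodium-proton exchanger gene Slc9a4 (223 and 258 CPM in antrum, listed at 0 in both forestomach libraries), whereas the proton pump gene Atp4b stayed at or under 0.02 CPM. Immune markers summed to 18.3 and 18.5 CPM in antrum and 53.3 and 58.9 CPM in forestomach, most of the forestomach sum coming from the lysosomal gene Cd68 (4.13 and 4.84 CPM in antrum, 44.8 and 39.5 CPM in forestomach), and the leukocyte gene Ptprc had 0.03 and 0.13 CPM in antrum and 0 in forestomach.

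Terminal squamous differentiation was measured at low levels in forestomach. Of 14 tested cornified envelope genes, of 28 on the list, 9 were lower in antrum and 2 higher (1 without antrum 1 or forestomach 1). Of the 3 at 1 CPM or more in all 4 libraries, 0 were higher and 1 lower, so most of the count rests on genes that passed the filter through 1 culture. Dmkn and Sbsn encode secreted proteins of the skin. Dmkn had 0.10 and 0.47 CPM in antrum and 158 and 176 CPM in forestomach, and Sbsn 0.31 and 0.32 CPM in antrum and 71.1 and 71.7 CPM in forestomach. Flg and Lor, for the epidermal envelope proteins filaggrin and loricrin, did not reach 0.3 CPM in any of the 4 libraries. Hox genes, which mark position along the body axis, had 5 tested members of 32 on the list, all lower in antrum. None of the 5 reached 1 CPM in both antrum libraries, so the filter left no other direction. Hoxc4 had 0 and 0.02 CPM in antrum and 8.43 and 5.05 CPM in forestomach.

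Against corpus, the glandular culture grown by the same protocol, antrum differed in 0.757% of tested genes: 66 (0.555%) were higher in antrum and 24 (0.202%) lower, and 943 had an unadjusted p under 0.05 (limma). The test of antrum against corpus shares the antrum libraries with that against forestomach, so values are given side by side. Its error pooled the spread of all 6 libraries, forestomach included. Of tested genes, 12.5% lay over 2-fold apart between the forestomach libraries, against 1.35% for antrum and 1.02% for corpus. No fit without the forestomach libraries was run, so the few calls do not measure how alike antrum and corpus were. These small counts moved by more than 1.5 times with most alternatives, and they ranged from 14 to 27 higher genes when 1 antrum or corpus library was left out. The median log2 difference of all tested genes between antrum and corpus was 0.21, and the differences from corpus below are to be read against it.

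Genes above both other cultures included transporters and surface proteins. Slc9a3, an apical sodium-proton exchanger gene, had 33.9 and 41.8 CPM in antrum, 1.71 and 0.34 CPM in corpus and 0.03 and 0.02 CPM in forestomach, a log2 difference from corpus of 4.34 ± 0.33 (adjusted p = 0.00066, limma) and from forestomach of 5.24 ± 0.33. Prap1, for a secreted acidic protein of the gut, had 21.3 and 18.1 CPM in antrum, 0.16 and 0.06 CPM in corpus and 0.05 and 0 CPM in forestomach. Cdhr2, whose protein links neighbouring microvilli, had 61.9 and 40.8 CPM in antrum, 6.13 and 4.03 CPM in corpus and 0 and 0.02 CPM in forestomach. Ildr1, of junctions where 3 cells meet, had 14.2 and 13.0 CPM in antrum, 0.81 and 0.52 CPM in corpus and 0.48 and 0.87 CPM in forestomach. For Ildr1 the corpus and forestomach libraries overlapped, whereas Cdhr2 and Tgfb3 were graded through corpus, with 35.9 and 24.5 CPM in antrum, 5.45 and 4.09 CPM in corpus and 0.05 and 0.05 CPM in forestomach for that growth factor gene. Against corpus, Nkx6-3 differed by 4.37 ± 0.42 (adjusted p = 0.00248, limma) and Pdx1 by 2.24 ± 0.24 (adjusted p = 0.00449, limma), the call of Pdx1 being lost without corpus 2.

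**Figure D5:**
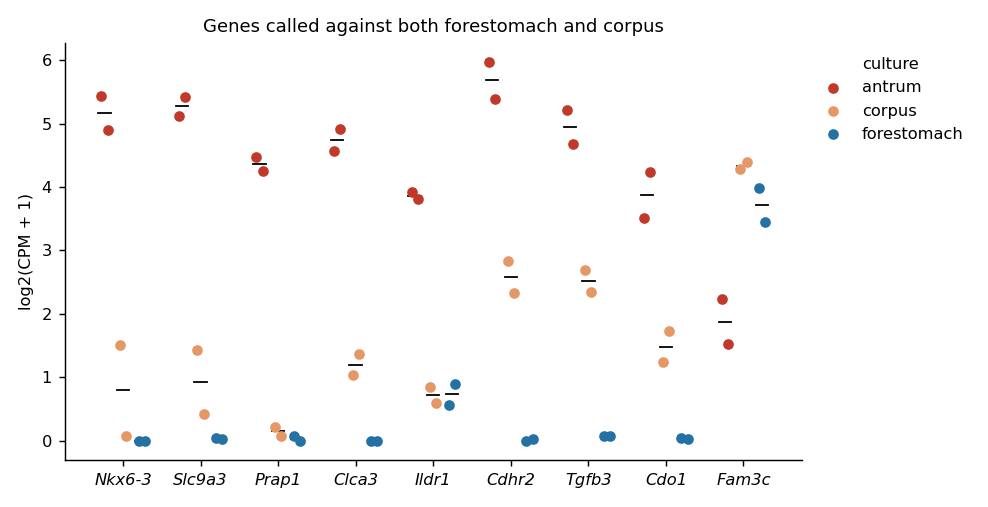
Levels as log2(CPM + 1) of the 8 named genes called higher in antrum than in both other cultures, and of Fam3c, the single gene called lower than in both, with 1 point per library and a line at the mean of 2. The 8 genes were chosen for this pattern; corpus points of Nkx6-3, Slc9a3, Prap1, Clca3, Ildr1 and Cdo1 stay at or under 2.33 CPM.

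Other genes took a middle place. Pgc, Gkn2 and Gif (intrinsic factor, needed for vitamin B12 uptake) were higher in antrum than in forestomach and lower than in corpus: Pgc had 1374 and 1516 CPM in corpus and differed from it by -2.14 ± 0.26 (adjusted p = 0.00685, limma), Gkn2 had 375 and 229 CPM in antrum, 1174 and 1660.5 CPM in corpus and 0 in forestomach, and Gif 11.1 and 23.9 CPM in antrum, 99.3 and 201 CPM in corpus and 0 in forestomach. Fgfr2, Tgm1 and Zfp365 took the reverse place. Fgfr2 had 11.7 and 13.6 CPM in antrum, 2.88 and 2.39 CPM in corpus and 85.8 and 55.3 CPM in forestomach, differing by 1.91 ± 0.29 from corpus (adjusted p = 0.0238, limma) and by -2.36 ± 0.29 from forestomach (adjusted p = 0.000194, limma). Tgm1, the transglutaminase that cross-links the cornified envelope, had 5.47 and 4.20 CPM in antrum, 0.27 and 0.29 CPM in corpus and 32.3 and 27.4 CPM in forestomach. Fam3c, which encodes a secreted cytokine-like protein, was lowest in antrum, with 3.69 and 1.88 CPM against 18.4 and 20.0 CPM in corpus and 14.8 and 9.88 CPM in forestomach, log2 differences of -2.46 ± 0.32 and -1.84 ± 0.32. With 1 antrum or corpus library left out, the calls of Pgc and Fgfr2 against corpus held in no case, and that of Fam3c only without antrum 1.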

How the data were processed

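Per the labels' protocols, RNA of 2D cultures went through Ribo-Zero removal of ribosomal RNA before library construction. For the 6 libraries, 2 per region, the deposited values are CPM rounded to 2 decimals, in a single table made by the authors. STAR, HTSeq, DESeq2, edgeR and the build mm9 are named per the submitters' processing notes, with no version, order or role. The sources used here give neither the gene annotation nor the use of strand. Listed genes hold 33.1% to 48.3% of each library's total, so the deposited scaling counts reads outside them. Of 15450 rows, 19 with date-like symbols were dropped. Columns name a region and a number, and each was assigned to its region only.

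A gene entered the tests if 2 or more of the 6 libraries reached 1 CPM (11891 genes). The log2(CPM + 1) values were modelled in limma (version 3.58.1, R 4.3.3) with an intensity trend in eBayes, over all 6 libraries with 3 group means and no block, leaving 3 residual and 6.1 prior degrees of freedom. Tests were two-sided, adjusted by the Benjamini-Hochberg method over all tested genes, at 0.05. The fit was tested on simulated data with the same spread in all groups and a small set of changed genes. That test cannot give the error rate of the calls reported here. Lists (53, with 1347 genes, 1166 in the table and 890 tested) were described by counts and medians, not tested. Where a group was listed at 0, the bound used 3 reads per library. The members, markers and lists were chosen with earlier results of these data known. Named were the 15 called genes with the largest difference in each direction (mean of 10 CPM or more in the higher group, no overlap), the 10 with the highest CPM in each culture, up to 8 called in the same direction against corpus, and in each list the called members with the largest differences and its defining or most abundant members; other members were named after their values were seen. The rankings over all genes left out unnamed gene models, mitochondrial genes, most small nuclear, nucleolar and ribosomal RNAs, Y-linked genes and Xist. Alternatives changed the pseudocount, the filter, the libraries fitted, the scaling, the trend and the block, and left out each library in turn. Promoter windows came from RefSeq. Python 3.11.15, numpy 2.4.6, pandas 2.3.3 and matplotlib 3.10.9 drew the figures.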

Additional observations from a re-analysis of the deposited data

How the results depend on the processing

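The counts of genes higher and lower in antrum than in forestomach, 2407 and 2223, stayed within 1.5 times under each alternative, except that the lower count was 1458 without antrum 1 and 1220 without antrum 2. Over all libraries left out in turn they ranged from 1633 to 3452 higher and from 1220 to 2808 lower, and with the column number as a replicate block they were 2609 and 2537. Without forestomach 1 the split was 3452 to 1945 and without forestomach 2 it was 2073 to 2808; the cause was not tested. Of the 2407 and 2223 genes, 2120 and 1723 were also called with only the 4 antrum and forestomach libraries fitted. Against corpus, the 66 higher genes became 40 with no filter, 25 with the replicate block, 38 with no intensity trend, 38 with listed genes rescaled to equal sums, 41 with median ratio scaling and 14 to 27 with a library left out. The 24 lower genes became 14 with no filter, 8 with the block, 10 with no trend and 5 to 10 with a library left out. Nothing in the sources used here says that the column numbers mark pairs. Deviations of same-numbered libraries correlated at 0.61 between antrum and corpus, at -0.11 between antrum and forestomach and at -0.06 between corpus and forestomach, across genes, so a pairing of antrum with corpus was neither shown nor set aside with 2 libraries each.

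A library left alone in its group was assumed to vary like the others. Of 1378 list counts recomputed, 92 moved by more than 1.5 times, and of 4632 gene values, 141 lost their call and none reversed as a called value. The edgeR test on recovered reads was not run: values under 200 CPM matched whole reads within the rounding, but that rounding reaches 0.184 to 0.238 of a read, above the 0.1 of a read set as the limit for recovered reads. Values near 0.1 CPM rest on a few reads.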

Other observations

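Defence genes of the mucosa changed members between the cultures. The hydrogen peroxide producing oxidases and their maturation factors come in 2 neighbouring pairs, which went opposite ways. Duox2 had 21.8 and 19.9 CPM in antrum and 0.45 and 0.12 CPM in forestomach, whereas Duox1 had 0.21 and 0.06 CPM in antrum and 32.3 and 31.4 CPM in forestomach. The maturation factor genes followed them, with 2.27 and 1.85 CPM in antrum and 0 in both forestomach libraries for Duoxa2 and 0.23 and 0.13 CPM in antrum and 15.9 and 18.1 CPM in forestomach for Duoxa1. Neighbouring genes may share reads, since the sources used here do not say whether counting used strand. Defb1, a defensin gene, was listed at 0 in antrum and had 56.8 and 43.0 CPM in forestomach, and Pigr, which carries antibodies across epithelia, had 63.7 and 78.3 CPM in antrum and 0.13 and 0 CPM in forestomach. Of 19 tested interferon response genes, 11 were higher in antrum and 1 lower. Of the 9 at 1 CPM or more in all 4 libraries, 3 were higher and 1 lower (2 lower over the whole list without forestomach 1). The viral RNA sensor gene Ifih1 had 10.3 and 15.4 CPM in antrum and 1.22 and 0.72 CPM in forestomach.

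Detoxifying enzymes were mostly higher in antrum, 28 of 46 tested against 4 lower, with a median log2 difference of 1.39 against -0.03 over all tested genes. Among those at 1 CPM or more in all 4 libraries, 17 of 32 were higher. The cytochrome gene Cyp2b10 had 52.9 and 34.3 CPM in antrum and 1.51 and 3.29 CPM in forestomach, and the glutathione peroxidase gene Gpx2 203 and 179.7 CPM in antrum and 52.9 and 44.0 CPM in forestomach. Nqo1 and Gclc, usual targets of the stress factor Nrf2, went the other way, with 12.3 and 15.2 CPM in antrum and 81.1 and 71.1 CPM in forestomach for Nqo1 and 80.3 and 78.4 CPM in antrum and 298 and 292 CPM in forestomach for Gclc. Protease inhibitor genes divided, 11 higher and 10 lower of 23, and 6 and 4 of the 12 at 1 CPM or more in all 4 libraries. Timp2 had 71.7 and 53.8 CPM in antrum and 6.10 and 2.80 CPM in forestomach, and Serpinb5, for maspin, 21.8 and 27.4 CPM in antrum and 235 and 255 CPM in forestomach.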
